A study of Rattus norvegicus with 12 samples.

Results

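Iron homeostasis genes linked to the iron-responsive element (IRE) were followed across the transcriptome and translatome of fetal rat liver. The members are 10 named genes: both ferritin subunits (Fth1, Ftl1), both transferrin receptors (Tfrc, Tfr2), the iron transporters Slc40a1 and Slc11a2, the heme enzyme Alas2, the IRE-binding proteins Aco1 and Ireb2, and the hormone gene Hamp. They were taken by name from 14497 genes named on the array, with earlier results of these data known. The platform table linked 16 probes to them, the brightest probe per gene was used, and all 10 passed the filter on dim probes that kept 10174 genes. All RNA came from Sprague Dawley fetuses at day 19 of gestation, delivered by C-section. The 4 groups were polysome RNA from dams fasted for 48 hr, polysome RNA from dams fed ad libitum, total RNA from fasted dams and total RNA from fed dams, with 3 Affymetrix Rat Gene 1.0 ST arrays each. Fasting of the dam served as a model of intrauterine growth restriction. The labels give 3 dams per diet and pooled polysome preparations, and do not say how many fetuses stand behind an array.

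The IRE is a hairpin in certain messenger RNAs that iron regulatory proteins bind when the cell is short of iron. Bound in the 5′ untranslated region, as in ferritin, ferroportin and Alas2 messages, they block the start of translation and so keep the message off polysomes. Bound in the 3′ untranslated region, as in Tfrc and one isoform of Slc11a2, they protect the message from decay. Fetal liver is at this age both a site of iron storage in hepatocytes and the main site of red cell production, and both cell types use iron genes.

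Values are log2(intensity + 1), and a difference of 1 is a doubling. Each array received the same mass of RNA, so a polysome value below its total value is low relative to other transcripts and does not give a number of ribosomes. In bulk tissue, fewer cells of a type and less RNA per cell cannot be told apart. Arrays of a group correlated at 0.9914 to 0.9961 over all probes, and arrays of different fractions at 0.9816 to 0.9880. Fed total array 1 stood apart in its exocrine pancreas transcripts, whose summed intensity was 5055 there and 1228 to 2324 on the other 11 arrays. Leaving that array out changed the call of 1 member, Aco1 in fed dams.

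The first comparison set polysome RNA against total RNA. It asks whether each message stood higher or lower, relative to other transcripts, in polysome RNA than in total RNA. Ferroportin (Slc40a1) stood lowest on polysomes among the members, at 53.2% of its total RNA level in fasted dams and 53.0% in fed dams. Fth1, Tfrc, Tfr2 and Aco1 were also lower on polysomes in both diets, and Slc11a2 in fasted dams. In contrast, Ftl1, Alas2, Ireb2 and Hamp did not pass the test in either diet. In all, 6 of 10 members were lower on polysomes in fasted dams and 5 of 10 in fed dams (limma adjusted p under 0.05), and 0 were higher. Among all 10174 genes, 18.2% were lower and 25.5% higher in fasted dams, 43.7% in all. In fed dams 19.4% were lower and 24.1% higher, 43.5% in all. The median difference of the members was -0.343 in fasted dams and -0.189 in fed dams, beside 0.054 and 0.042 over all genes.

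**Figure D1:**
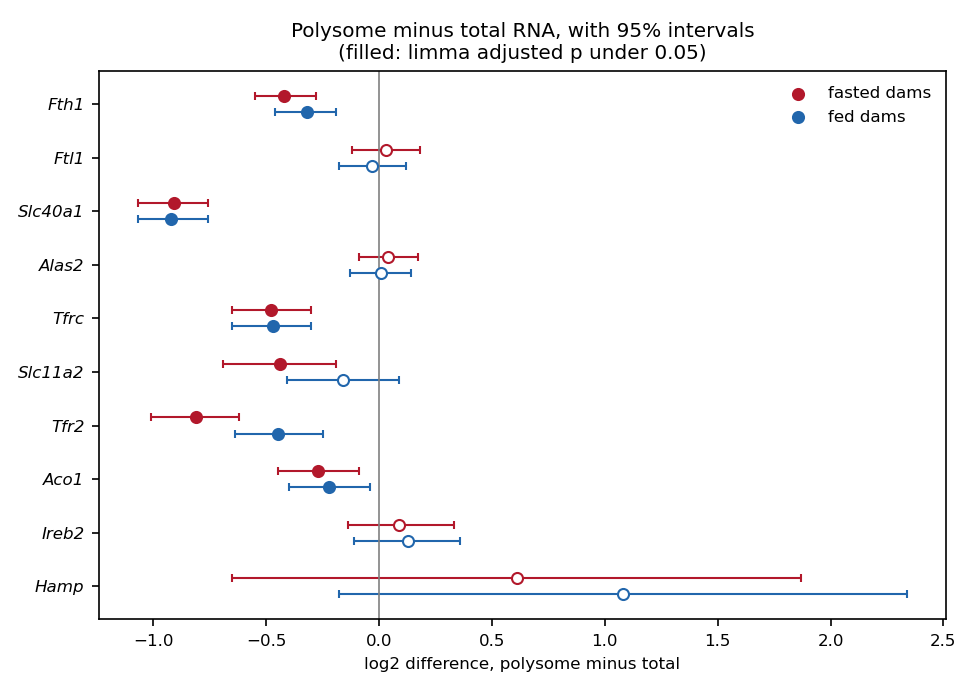
Difference between polysome and total RNA for each of the 10 genes (rows), in log2 units on the x axis, in fasted dams (red) and fed dams (blue). Points are limma estimates with 95% intervals, and filled points passed an adjusted p of 0.05. Slc40a1 lies farthest to the left in both diets, at -0.91 and -0.92.

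Among the messages with a 5′ IRE, Slc40a1 encodes the only known cellular iron exporter, a membrane protein. It measured 11.67, 11.58 and 11.60 in fasted polysome RNA, against 12.61, 12.44 and 12.53 in fasted total RNA. Fed polysome RNA gave 11.49, 11.50 and 11.40, against 12.30, 12.40 and 12.45 in fed total RNA. The fractions were far apart and did not overlap in either diet. The difference was -0.91 ± 0.0719 (SE, limma adjusted p = 1.42e-06) in fasted dams and -0.92 ± 0.0719 (limma adjusted p = 1.56e-06) in fed dams. Of all tested genes, 2.2% had a value as low or lower in fasted dams, and 2.1% in fed dams. Macrophages, which recycle iron from red cells, are known to express this gene strongly. Of 12 macrophage markers tested, 8 were lower and 1 higher on polysomes in fasted dams, and 7 lower and 0 higher in fed dams. Over all genes, 18.2% were lower and 25.5% higher in fasted dams, and 19.4% and 24.1% in fed dams. The summed macrophage signal ran from 7553 to 7872 in fasted polysome RNA against 9961 to 11285 in fasted total RNA, and from 6562 to 6922 in fed polysome RNA against 9186 to 9584 in fed total RNA. The part of these cells in the Slc40a1 difference was not tested.

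Fth1 encodes the ferritin heavy chain, which oxidises iron as it enters the ferritin shell. It measured 13.25, 13.35 and 13.25 in fasted polysome RNA, against 13.72, 13.69 and 13.69 in fasted total RNA. In fed dams it measured 13.36, 13.42 and 13.32 in polysome RNA, against 13.67, 13.69 and 13.71 in total RNA. All polysome arrays lay below all total arrays. Fth1 was thus at 74.9% of its total level in fasted dams (-0.42 ± 0.0632, limma adjusted p = 0.000173) and at 79.9% in fed dams (-0.32 ± 0.0632, limma adjusted p = 0.00112). Its other probe was dimmer and differed in the same direction, by -0.39 ± 0.0668 in fasted dams and -0.40 ± 0.0668 in fed dams.

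Ftl1 encodes the ferritin light chain, which helps form the iron core. Its message carries the same kind of 5′ IRE, and its measured difference was near 0. It measured 13.78, 13.66 and 13.68 in fasted polysome RNA, against 13.72, 13.73 and 13.59 in fasted total RNA. In fed dams, polysome RNA gave 13.60, 13.66 and 13.52, against 13.64, 13.62 and 13.62 in total RNA. The fractions overlapped in both diets. The difference was 0.03 in fasted dams (95% interval -0.12 to 0.18, limma adjusted p = 0.774) and -0.03 in fed dams (-0.18 to 0.12, limma adjusted p = 0.752). The platform table links 6 probes to Ftl1. Of the other 5, 4 passed the filter, with differences of 0.01 to 0.13 in fasted dams and -0.01 to 0.15 in fed dams and none past the threshold. The last lay below the filter level of 6.07, at a mean of 4.69. Ferritin genes have many near-identical copies in rodent genomes, so these probes may share targets and are not separate measurements.

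Polysome and total arrays of the same number and diet were taken to come from the same liver material, on the basis of their shared deviations from the group means, since the labels do not state it. Each such pair of arrays is called a liver here. It may not be a single animal, because polysome preparations were pooled and the number of fetuses is not given. In 6 of 6 livers the Fth1 difference lay below the Ftl1 difference (Fth1 minus Ftl1, -0.54 to -0.27). Both genes were among the brightest on the array: the Fth1 probe was brighter than 99.8% of probes and the Ftl1 probe than 99.9%. The highest value of any probe was 14.38, and the effect of signal near the top of the scale on these differences was not tested.

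Alas2 encodes the erythroid form of the first enzyme of heme synthesis. It measured 13.18, 13.18 and 13.24 in fasted polysome RNA, against 13.17, 13.17 and 13.14 in fasted total RNA, and all 12 arrays lay between 13.13 and 13.24. Its difference between fractions was 0.04 in fasted dams (95% interval -0.09 to 0.17, limma adjusted p = 0.612) and 0.01 in fed dams (-0.13 to 0.14, limma adjusted p = 0.940). The fasted arrays did not overlap, although the difference was small. Slc40a1 minus Alas2 ran from -1.08 to -0.75 over the 6 livers. The spread of Alas2 within groups, an SD of 0.031, was among the smallest on the array, where the median gene had 0.117. Alas2 is made in erythroid cells, and of 17 erythroid markers tested, 5 were higher and 2 lower on polysomes in fasted dams, and 7 higher and 2 lower in fed dams. Their summed signal was 82712 to 85207 in fasted polysome RNA against 78834 to 82071 in fasted total RNA, and 83417 to 86240 in fed polysome RNA against 79897 to 83387 in fed total RNA. Over all genes, 25.5% were higher and 18.2% lower on polysomes in fasted dams, and 24.1% and 19.4% in fed dams.

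Among the messages with a 3′ IRE, Tfrc encodes transferrin receptor 1, the main route of iron into erythroid precursors. It measured 12.53, 12.55 and 12.48 in fasted polysome RNA, against 13.00, 12.96 and 13.03 in fasted total RNA. In fed dams it measured 12.61, 12.49 and 12.69 in polysome RNA, against 13.09, 12.92 and 13.19 in total RNA. The fractions did not overlap. Tfrc stood at 71.9% of its total level in fasted dams (-0.48 ± 0.0811, limma adjusted p = 0.000418) and at 72.2% in fed dams (-0.47 ± 0.0811, limma adjusted p = 0.000457). Over 6 livers, the differences of Tfrc ran from -0.55 to -0.41. Of the 17 erythroid markers, Rhag and Rhd were the only 2 that were likewise lower on polysomes in both diets. More of these markers went the other way, 5 in fasted dams and 7 in fed dams.

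Slc11a2 encodes the divalent metal transporter that moves iron out of endosomes. It measured 10.85, 10.99 and 10.77 in fasted polysome RNA, against 11.29, 11.25 and 11.38 in fasted total RNA, without overlap (-0.44 ± 0.117, limma adjusted p = 0.00798). In fed dams, polysome RNA gave 11.05, 10.72 and 10.56, against 11.05, 10.77 and 11.00 in total RNA. These overlapped, and the difference of -0.16 ± 0.117 did not pass (limma adjusted p = 0.292). Without fed polysome array 1 it was -0.30 (limma adjusted p = 0.0317), and over all alternatives it ran from -0.30 to -0.05. The platform table does not name the isoforms its probe reads, with or without the IRE.

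The remaining members carry no well-established IRE. Tfr2 encodes transferrin receptor 2, an iron sensor of the hepatocyte membrane. It measured 10.42, 10.54 and 10.17 in fasted polysome RNA, against 11.28, 11.19 and 11.10 in fasted total RNA. Fed polysome RNA gave 10.65, 10.61 and 10.63, against 11.08, 11.11 and 11.03 in fed total RNA. Polysome arrays were lower throughout, at 56.9% of the total level in fasted dams (-0.81 ± 0.0892, limma adjusted p = 1.38e-05) and 73.4% in fed dams (-0.45 ± 0.0892, limma adjusted p = 0.00134).

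Aco1 encodes iron regulatory protein 1, which is a cytosolic aconitase when it holds an iron-sulfur cluster. It measured 10.29, 10.55 and 10.42 in fasted polysome RNA, against 10.71, 10.56 and 10.79 in fasted total RNA (-0.27 ± 0.0817, limma adjusted p = 0.0169). In fed dams, polysome RNA gave 10.44, 10.50 and 10.50, against 10.69, 10.67 and 10.73 in total RNA (-0.22 ± 0.0817, limma adjusted p = 0.0440). The groups did not overlap, but the margin was small. The fed call was lost with each liver as a fixed block (limma adjusted p = 0.0599) and kept with the liver as a random block (limma adjusted p = 0.0272). It was lost in 12 of 22 alternatives in all, with adjusted p from 0.0272 to 0.120 over the 22. The fasted call was lost without fasted polysome 1 (limma adjusted p = 0.0789), fasted total 1 (0.0508) or fasted total 3 (0.0729).

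Ireb2 encodes iron regulatory protein 2, which is degraded when iron is plentiful. It measured 9.64, 9.84 and 9.81 in fasted polysome RNA, against 9.65, 9.58 and 9.78 in fasted total RNA. Fed polysome RNA gave 9.54, 9.97 and 9.98, against 9.70, 9.70 and 9.71 in fed total RNA. The fractions overlapped, and neither difference passed (0.09 ± 0.109 in fasted dams, limma adjusted p = 0.522, and 0.13 ± 0.109 in fed dams, limma adjusted p = 0.374). Without fed polysome array 1, the lowest of its group, the fed difference was 0.27 (limma adjusted p = 0.0206), and over all alternatives it ran from 0.05 to 0.27. The Aco1 difference lay below that of Ireb2 in 6 of 6 livers (Aco1 minus Ireb2, -0.50 to -0.09).

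**Figure D2:**
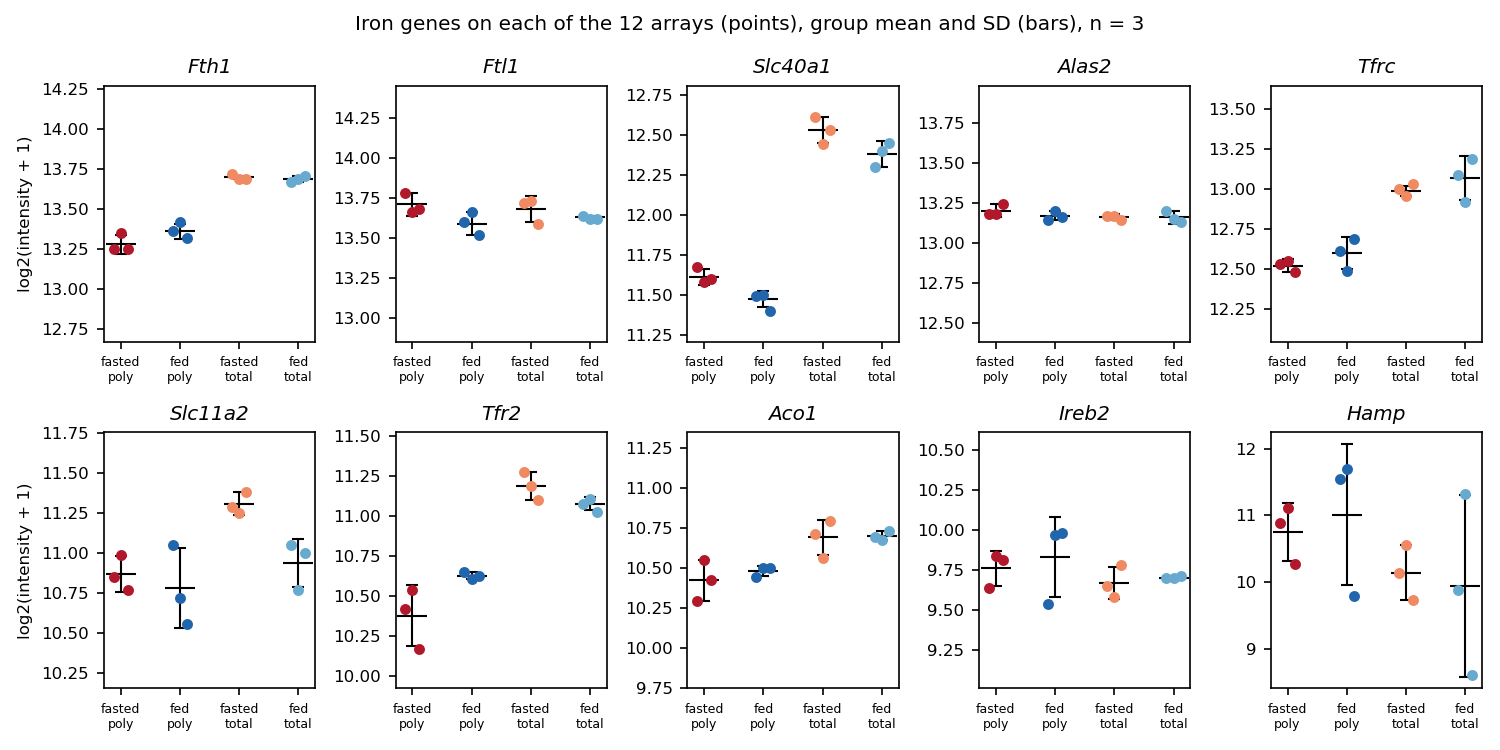
Level of the 10 genes on each of the 12 arrays, as log2(intensity + 1) on the y axis, with a panel per gene and its own axis range. Points are arrays, and bars are the group mean and SD (n = 3). Polysome arrays lie below total arrays for Fth1, Slc40a1, Tfrc and Tfr2, whereas Ftl1 and Alas2 are level across the groups.

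Hamp encodes hepcidin, the liver hormone that removes ferroportin from the cell surface. Its level varied between arrays of a group more than that of almost any other gene: the SD within groups was 0.912, and 4 of 10174 genes had a larger one. It measured 10.88, 11.11 and 10.27 in fasted polysome RNA, against 10.14, 10.55 and 9.73 in fasted total RNA. In fed dams it measured 11.55, 11.70 and 9.79 in polysome RNA, against 9.88, 11.32 and 8.61 in total RNA. Array number 2 was the highest and number 3 the lowest in every group, in both diets and both fractions.

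Polysome RNA held more Hamp than total RNA in each of the 6 livers when arrays of the same number were joined. The differences were 0.73, 0.55 and 0.54 in fasted livers, and 1.67, 0.38 and 1.18 in fed livers. The mean was 0.61 in fasted dams (95% interval -0.65 to 1.87) and 1.08 in fed dams (-0.18 to 2.34). Without pairing, neither passed (limma adjusted p = 0.430 in fasted dams and 0.156 in fed dams). With each liver as a fixed replicate block, both passed (limma adjusted p = 0.0174 in fasted dams and 0.000730 in fed dams). With the liver as a random block, whose correlation of 0.23 is shared by all genes, neither passed (limma adjusted p = 0.303 in fasted dams and 0.0722 in fed dams). The call thus depends on how the pairing is modelled. Single arrays moved the fed difference in both directions. It was 1.69 without fed polysome 3 (limma adjusted p = 0.0296) and 1.77 without fed total 2 (limma adjusted p = 0.0159), but 0.41 without fed total 3 (limma adjusted p = 0.581). The fasted difference ran from 0.40 to 0.85 over the alternatives.

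**Figure D3:**
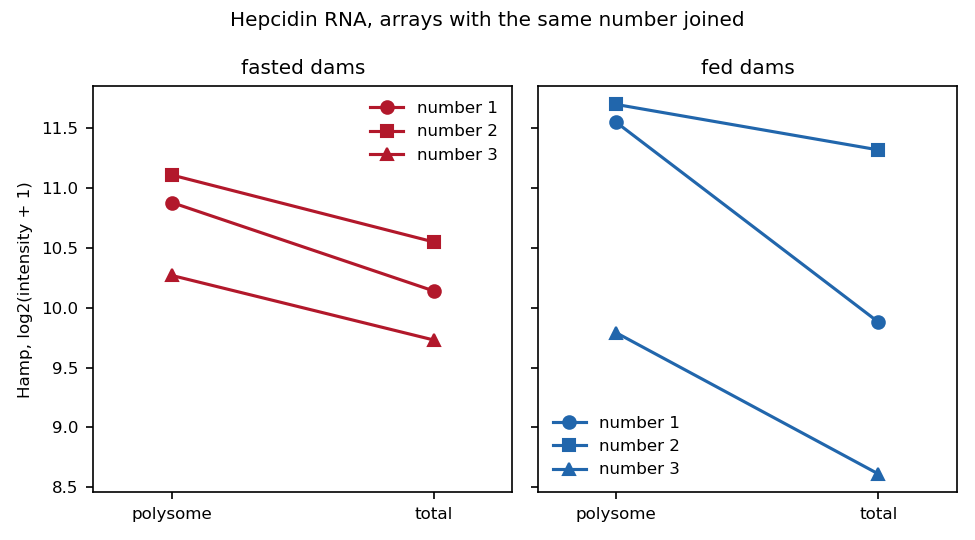
Hamp level as log2(intensity + 1) on the y axis in polysome and total RNA, with lines joining arrays of the same number, for fasted dams (left) and fed dams (right). All 6 lines are higher on the polysome side, and number 3 is lowest in both diets.

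The promoter of Hamp is shown because it is the member whose level differed most between arrays of a group. In human HAMP, a BMP response element of the sequence GGCGCC and a STAT3 site of the form TTCNNNGAA are known to carry the responses to iron and to interleukin-6. Both strings occur in the rat promoter, beginning at -129 and -117 from the RefSeq start. The stretch from -150 to -51 lies at chr1:95300322-95300421 of GRCr8 on the minus strand (RefSeq), with these strings in capitals:
Hamp: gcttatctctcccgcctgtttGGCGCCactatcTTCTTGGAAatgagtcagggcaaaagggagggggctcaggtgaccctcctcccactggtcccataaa
Each string is its own reverse complement in form. Of 33469 promoter windows in the RefSeq table, 11% hold GGCGCC and 8.87% hold TTCNNNGAA. Among the 8 members with a window there, Tfrc also holds GGCGCC. Fth1 and Ftl1 had no window and were not searched.

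The second comparison asked whether maternal fasting altered the members on polysomes. None of the 10 passed (limma, adjusted p from 0.133 to 0.838), where 2.01% of all genes did, 1.59% higher and 0.423% lower. At an unadjusted p under 0.05 there was 1 of 10 members, Tfr2, beside 20.9% of all genes. Its fasted polysome arrays, at 10.42, 10.54 and 10.17, all lay below the fed ones, at 10.65, 10.61 and 10.63. The difference was -0.25 ± 0.0892 (95% interval -0.44 to -0.06, limma adjusted p = 0.133), and without fasted polysome array 2 it was -0.33 (limma adjusted p = 0.0423). Ftl1 differed by 0.11 ± 0.0703 (limma adjusted p = 0.384). Its fasted and fed arrays all but met, at intensities of 12955 and 12944. Its other probes past the filter gave 0.02 to 0.08, and the mean of all its probes, with the dim one, gave -0.03. Slc40a1 differed by 0.15 ± 0.0719 (limma adjusted p = 0.262), and its fasted arrays lay above the fed ones. Macrophage markers moved the same way: 2 of 12 rose in polysome RNA, Cd68 (0.41 ± 0.0812, limma adjusted p = 0.0263) and C1qb (0.51 ± 0.114, limma adjusted p = 0.0428), and their sum was 7553 to 7872 in fasted against 6562 to 6922 in fed polysome RNA. Their part in the Slc40a1 value was not tested.

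In total RNA, fasting likewise changed none of the members past the threshold (limma, adjusted p from 0.140 to 1.00), and 1.03% of all genes passed, 0.737% higher and 0.295% lower. At an unadjusted p under 0.05 there was 1 of 10 members, Slc11a2, beside 16.2% of all genes. It measured 11.29, 11.25 and 11.38 in fasted dams, against 11.05, 10.77 and 11.00 in fed dams, without overlap (0.37 ± 0.117, 95% interval 0.12 to 0.62, limma adjusted p = 0.140). Its value ranged from 0.29 to 0.42 over the alternatives, with a smallest adjusted p of 0.0630. Its difference was as high as or higher than that of 97.0% of genes.

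For the abundant members, the intervals for fasting were narrow. In total RNA they ran from -0.12 to 0.15 for Fth1, -0.10 to 0.21 for Ftl1, -0.13 to 0.13 for Alas2 and -0.25 to 0.10 for Tfrc. Like the ferritin probes, those of Alas2 and Tfrc were bright, at or above 99.6% and 99.1% of probes. The effect of signal near the top of the scale on these intervals was not tested. For Hamp, with its spread between arrays of a group, the interval of -1.05 to 1.46 was far wider.

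**Figure D4:**
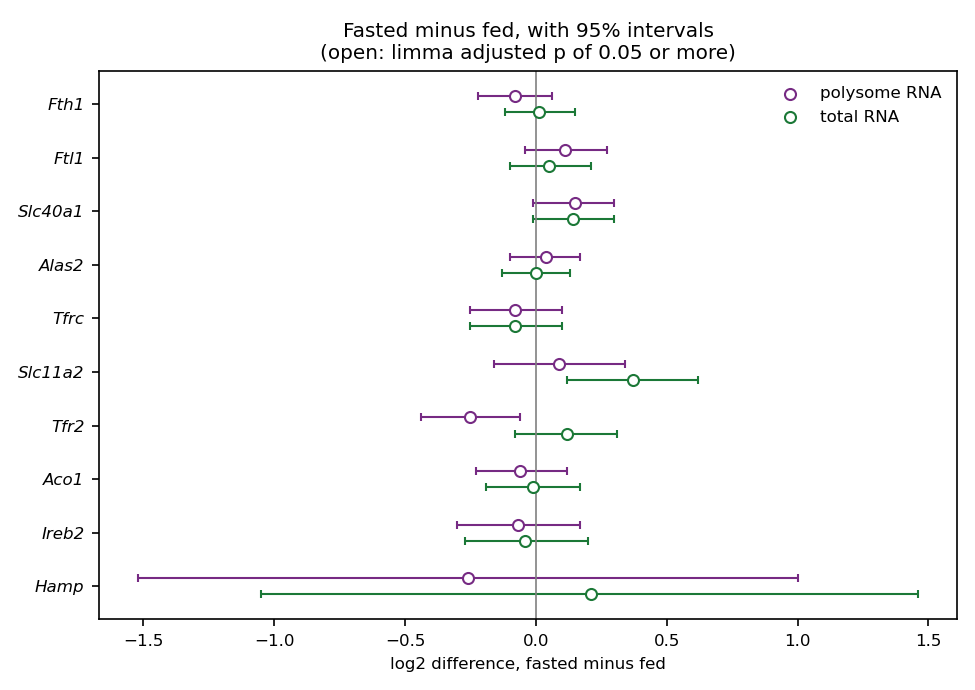
Fasted minus fed difference for each of the 10 genes (rows), in log2 units on the x axis, in polysome RNA (purple) and total RNA (green). Points are limma estimates with 95% intervals, and all are open because none passed. Hamp has the widest intervals, and Slc11a2 in total RNA has the largest estimate, 0.37.

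The third comparison asked whether fasting moved members onto or off polysomes beyond their change in total RNA, the readout closest to IRE control of translation. None of the 10 passed (limma adjusted p of 0.856 or more), and 0.00% of all genes did. At an unadjusted p under 0.05 there were 549 genes (5.4%) and 1 of 10 members, Tfr2. Among the 5′ IRE messages the estimates were -0.09 for Fth1 (95% interval -0.29 to 0.10), 0.06 for Ftl1 (-0.15 to 0.27), 0.01 for Slc40a1 (-0.21 to 0.22) and 0.04 for Alas2 (-0.15 to 0.22). Thus a shift of ferroportin or Alas2 on polysomes of more than 0.22 in either direction lay outside these intervals. The effect of signal near the top of the scale on the Alas2 interval was not tested. Tfr2 had an estimate of -0.37 ± 0.126 (-0.64 to -0.10), and 0.8% of genes had one as low or lower. It did not pass (limma adjusted p = 0.856, and 0.487 with each liver as a fixed block). Slc11a2 was at -0.28 ± 0.165 (limma adjusted p = 0.863).

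The wider iron pathway was described with 8 lists. Their counts stand beside 25.5% of all genes higher and 18.2% lower on polysomes in fasted dams, and 24.1% and 19.4% in fed dams. No list was tested against these shares, and the lists were chosen with earlier results of these data known. Of 16 iron-sulfur cluster assembly genes tested, 11 were higher on polysomes in fasted dams and 10 in fed dams, and 0 were lower (median difference 0.39 in fasted and 0.33 in fed dams). Glrx5, the glutaredoxin that passes clusters on in mitochondria, was 1.77-fold higher in fasted dams (0.82 ± 0.0741, limma adjusted p = 3.54e-06) and 1.79-fold in fed dams. Nubp1, a scaffold of cytosolic cluster assembly, was 2.37-fold higher in fasted dams and 1.92-fold in fed dams. Fbxl5, the iron-sensing ligase subunit that degrades Ireb2 protein, was 1.32-fold higher in fasted dams (0.40 ± 0.0761, limma adjusted p = 0.000902) and 1.31-fold in fed dams. It was among 4 of 8 IRP turnover and iron sensing genes higher in fasted dams and 3 of 8 in fed dams, with 0 lower (medians 0.12 and 0.23). Iscu and Nfs1, higher in both diets, belong to this list and to the iron-sulfur list, so these counts overlap.

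In contrast, of 12 transferrin cycle and iron import genes, which include Tfrc, Tfr2 and Slc11a2, 7 were lower on polysomes in fasted dams and 4 in fed dams, and 0 were higher (medians -0.25 and -0.15). Cybrd1, a membrane ferrireductase, was 1.53-fold lower in fasted dams and 1.48-fold in fed dams, and Mcoln1, an endolysosomal channel that conducts iron, 1.40-fold and 1.35-fold. Of 5 iron export and oxidation genes, which include Slc40a1 and Hamp, 4 were lower in fasted dams and 3 in fed dams, and 0 higher (medians -0.74 and -0.68). Hamp did not pass and was higher by point estimate, at 0.61 in fasted and 1.08 in fed dams. Beside Slc40a1, the copper ferroxidase ceruloplasmin (Cp), a secreted protein that works with it, was 2.33-fold lower in fasted dams (-1.22 ± 0.151, limma adjusted p = 3.43e-05) and 2.95-fold in fed dams (-1.56 ± 0.151, limma adjusted p = 6.47e-06). Hemopexin (Hpx), the heme carrier of plasma, was 1.79-fold lower in fasted dams and 1.76-fold in fed dams. Of 11 heme transport and breakdown genes, 6 were lower and 2 higher in fasted dams, and 5 lower and 1 higher in fed dams (medians -0.33 and -0.21).

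Of 11 heme synthesis genes, 2 were higher and 2 lower on polysomes in fasted dams, and 3 higher and 2 lower in fed dams (medians 0.02 and 0.03). Alas1, the housekeeping counterpart of Alas2, was 1.33-fold lower in fasted dams (-0.41 ± 0.0850, limma adjusted p = 0.00158) and 1.54-fold lower in fed dams (-0.62 ± 0.0850, limma adjusted p = 8.04e-05). Fech, which inserts iron into heme, was 1.28-fold higher in fasted dams (limma adjusted p = 0.00342). Of 19 genes of hepcidin control, 4 were higher and 10 lower in fasted dams, and 4 higher and 9 lower in fed dams (medians -0.31 and -0.23). The lower ones included the membrane proteins Tmprss6, a protease that restrains hepcidin, and Neo1, a coreceptor, while Smad1 and Smad5, the BMP signal carriers, and Smad7, their inhibitor, were among the higher ones in both diets.

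**Figure D5:**
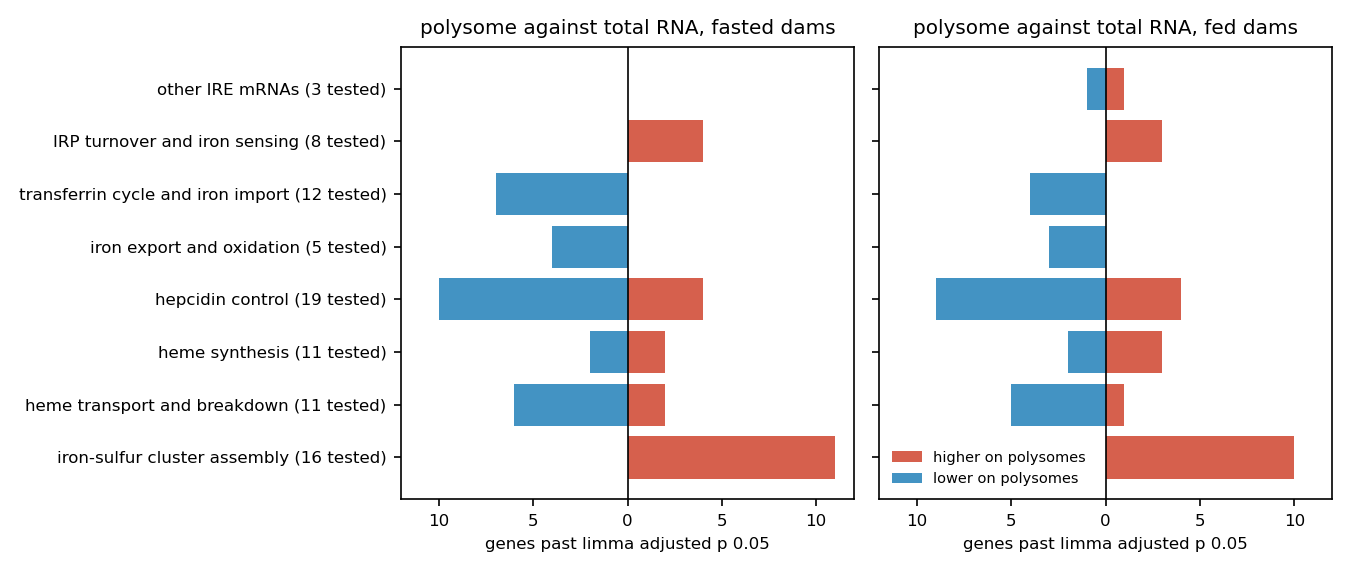
Number of genes in each iron list (rows, with the number tested) that were higher (red, to the right of 0) or lower (blue, to the left) on polysomes than in total RNA at a limma adjusted p under 0.05, in fasted dams (left) and fed dams (right). Iron-sulfur cluster assembly has bars to the right only, and transferrin cycle and iron import to the left only.

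Of 3 other IRE messages tested, 0 passed in fasted dams, and 1 was higher and 1 lower in fed dams. The higher one, the 5′ IRE message Epas1, which encodes the hypoxia factor HIF-2 alpha, was 1.26-fold higher on polysomes in fed dams (0.33 ± 0.0732, limma adjusted p = 0.00248) and measured 0.11 ± 0.0732 in fasted dams (limma adjusted p = 0.250). The change between diets was -0.22 ± 0.104 and did not pass (limma adjusted p = 0.856). With fasting, Bmp2, an endothelial ligand that induces hepcidin, was the only gene of the 8 lists to pass. It rose 1.31-fold in total RNA (0.39 ± 0.0796, limma adjusted p = 0.0395). Endothelial markers were at a summed signal of 8412 to 8577 in fasted total RNA, against 6993 to 7611 in fed total RNA. Of 10 tested, 2 rose, Esam (limma adjusted p = 0.0420) and Pecam1 (limma adjusted p = 0.0428), beside 0.737% of all genes. The part of endothelial cells in the Bmp2 change was not tested. Whether the calls of Bmp2, Esam and Pecam1 hold with 1 array left out was not examined.

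The same endothelial markers were lower on polysomes in 10 of 10 cases in fasted dams and 7 of 10 in fed dams. Of 12 hepatocyte markers, mostly secreted proteins, 7 were lower in fasted and 6 in fed dams, and 1 was higher in each diet. Over all genes, 18.2% were lower in fasted dams and 19.4% in fed dams. Among the members, Slc40a1, Tfrc, Tfr2 and Slc11a2 encode membrane proteins, and Slc11a2 did not pass in fed dams. Fth1 and the cytosolic aconitase gene Aco1 were lower as well. The hormone gene Hamp was higher by point estimate, at 0.61 in fasted and 1.08 in fed dams, without passing in the unpaired fit. The part that cell type or protein destination had in the differences of the members was not tested.

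The genes whose values over the 12 arrays ran most like those of 4 members were found by Pearson's r, as a description. For Tfrc they were Ebp (r = 0.991), Elovl2 (0.985) and Tspan9 (0.977), and for Fth1 Cpd (0.988), Rsrp1 (0.986) and Tek (0.986). All 6 were lower on polysomes in both diets by point estimate, with differences of -1.34 to -0.44. That direction follows from how they were picked, because polysome and total arrays of Tfrc and Fth1 did not overlap. The genes most like Hamp were Eif3h (0.910), Mus81 (0.882) and H2ap (0.873), and those most like Alas2 were Etfbkmt (0.908), Stk17b (0.886) and Chac2 (0.854).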

How the data were processed

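Per the submitters' processing notes the authors used RMA, and its version and the genome build were not given in the sources used here. The deposited table holds linear intensity, 1 value for each probe on each array, between 3.62 and 21344 with array medians of 101.3 to 108.3, and log2(value + 1) was analysed. Of 28826 probes, 15209 had 1 gene symbol in the platform table, 306 had several and 13311 were unlisted. Current names came through Entrez identifiers for 15178 probes. The brightest probe stood for each of 494 genes with several. A gene was tested if its mean reached the 40th percentile of all probes (6.07 log2).

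limma 3.58.1 in R 4.3.3 fitted 1 mean per group to the 12 arrays and 10174 genes, with 8 residual and 5.16 prior degrees of freedom, two-sided p and Benjamini-Hochberg adjustment over genes (threshold 0.05). The script was tested on simulated data. Plots were made in matplotlib 3.10.9 (Python 3.11.15). The number of arrays limits the precision (median SE 0.0945).

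The members and lists were chosen with earlier results of these data known. Named genes are the members, Epas1, the 3 genes most like each of 4 members, and from each list those among the 4 smallest p past the threshold per contrast. Smad1, Smad5, Smad7, Rhag, Rhd, Esam, Pecam1, Cd68 and C1qb were chosen after their values were seen.

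Polysome and total arrays of equal number deviated together from their group means (r = 0.15 to 0.32 in fasted and 0.32 to 0.36 in fed dams, all 6 pairs), so they were treated as pairs in the block alternatives, with the liver as a fixed or as a random block. Equal numbers in different diets gave r = -0.14 to 0.25 in polysome RNA and -0.13 to -0.01 in total RNA. The polysome range overlapped that of the fasted pairs, so the pairing remains an assumption, least certain in fasted dams. The p-values measure the spread between these arrays. Promoter sequence is RefSeq, GRCr8.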

Additional observations from a re-analysis of the deposited data

How the results depend on the processing

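Alternatives were no filter, other scalings, averaged probes, nothing added before the log, a trended robust prior, fits to the compared arrays alone, blocks, and 1 array left out at a time. Slc40a1, Fth1, Tfrc and Tfr2 stayed lower on polysomes past the threshold in both diets under all 22 alternatives, and so did Slc11a2 in fasted dams. With 1 array left out, members called on polysomes numbered 5 to 6 in fasted and 4 to 6 in fed dams, and all genes called 3614 to 4655 and 3661 to 4541. The fasting comparison in polysome RNA called 205 genes in the reported fit, 93 without the filter, 394 with the trended robust prior, 40 from the compared arrays alone, 309 with a replicate block on the number, and 11 to 755 with 1 array left out, where members called were 0 to 1. In total RNA the 105 genes became 57 without the filter, 42 from the compared arrays alone and 17 to 147 with 1 array left out, and members stayed at 0. For the difference between fasting effects, 0 genes became 1 with each liver as a fixed replicate block. The cause of these changes in the counts was not tested. The random liver block changed no member's call. The fixed blocks changed calls of Hamp and Aco1 and of no other member: Hamp in fed dams had a limma adjusted p of 0.0149 and Aco1 of 0.0520 with the block on the number.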
